A study of Rattus norvegicus with 6 samples.

Results

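Nobox, Sohlh2, Lhx8 and Pou5f1 are transcription factors of female germ cells, and their transcripts were measured in ovaries of neonatal rats given lipopolysaccharide (LPS) or saline. A list of 7 oocyte transcription factors was named first (Figla, Nobox, Sohlh1, Sohlh2, Lhx8, Taf4b and Pou5f1). A factor was kept when the RefSeq accession of a non-control probe mapped to its gene, which left 4 of the 7, each with 1 probe, among 15154 named genes and 30367 probes on the array. No probe was matched to Figla, Sohlh1 or Taf4b by this route, and they were not analysed here. The matching of probes used no measured value.

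Female Wistar rat pups were injected intraperitoneally on PND (postnatal day) 3 and again on PND 5, with 0.05 mg/kg LPS from Salmonella enterica or with the same volume of saline. Their whole ovaries were taken on PND 7. LPS is an outer membrane component of Gram-negative bacteria that is sensed by Toll-like receptor 4. The comparison asks how ovarian transcripts of treated pups differed from those of controls after the last injection. RNA was hybridized to 6 single-colour Agilent arrays, with 3 for each treatment. The methods describe the arrays as biological replicates drawn from 5 animals per treatment, from 2 litters each, but not which animals made up an array, so that p-values measure the spread between these arrays only.

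In the first days after birth, the clusters of oocytes in the rodent ovary break up and each oocyte becomes enclosed by flattened granulosa cells as a primordial follicle. Sohlh1 and Sohlh2, basic helix-loop-helix proteins, act early in this step, Lhx8 (a LIM homeodomain protein) and Nobox (a homeodomain protein) are needed for oocytes to survive and begin to grow, and Figla switches on the genes of the egg coat. Pou5f1, also known as Oct4, is a POU domain factor of pluripotent cells and germ cells, and Taf4b is a germ cell form of a subunit of the general transcription machinery. Figla and the Sohlh proteins bind short sequences called E-boxes, and the homeodomain factors bind sites built around a TAAT or TGAT core.

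Promoter sequences from RefSeq (assembly GRCr8) were available in the reference table used here for 3 of the 4 factors, and windows of these 3 are shown. Each window runs from 250 bases before to 50 bases after a transcription start, 5′ to 3′ on the strand of the gene. Capitals mark matches, searched on both strands, to the E-box CANNTG, its form CACGTG (which is also a match to CANNTG), the NOBOX element TAATTG, the LHX8 element TGATTG or the octamer ATGCAAAT that POU factors recognise.
Nobox, chr4:73134382-73134681, minus strand: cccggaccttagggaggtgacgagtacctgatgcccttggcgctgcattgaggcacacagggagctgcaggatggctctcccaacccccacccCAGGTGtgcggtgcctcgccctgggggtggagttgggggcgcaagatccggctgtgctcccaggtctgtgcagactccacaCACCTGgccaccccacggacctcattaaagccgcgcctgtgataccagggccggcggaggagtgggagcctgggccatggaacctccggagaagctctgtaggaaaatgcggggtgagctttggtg
Sohlh2, chr2:141512160-141512459, plus strand: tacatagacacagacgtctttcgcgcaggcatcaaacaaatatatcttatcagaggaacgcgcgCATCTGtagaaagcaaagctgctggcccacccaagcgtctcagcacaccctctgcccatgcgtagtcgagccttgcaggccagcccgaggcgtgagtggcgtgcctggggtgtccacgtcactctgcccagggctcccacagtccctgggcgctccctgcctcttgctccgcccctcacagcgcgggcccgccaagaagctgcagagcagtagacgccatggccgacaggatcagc
Lhx8, the second of 2 starts, chr2:245927429-245927728, minus strand: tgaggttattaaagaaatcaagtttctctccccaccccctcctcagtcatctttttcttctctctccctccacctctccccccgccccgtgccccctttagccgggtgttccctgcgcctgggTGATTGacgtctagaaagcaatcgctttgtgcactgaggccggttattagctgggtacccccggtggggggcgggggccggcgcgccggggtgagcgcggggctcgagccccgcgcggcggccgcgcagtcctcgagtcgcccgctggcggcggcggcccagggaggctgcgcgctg

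The Nobox window held 2 E-boxes, CAGGTG and CACCTG, and the Sohlh2 window held 1, CATCTG. The second Lhx8 start had 1 TGATTG, while the window at its first start, chr2:245929327-245929626 on the minus strand, held none of the motifs. Over 33469 rat promoters of the same length, 72.1% held CANNTG, 6.42% held CACGTG, 8.2% held TAATTG, 14% held TGATTG and 1.78% held ATGCAAAT. The matches describe these letters only, and a missing match says nothing about whether a factor binds there.

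Levels are on the log2 scale, from the background-subtracted spot signal, and the 75th percentile of each array was subtracted, so that 0 is the level of the 75th percentile probe. A level of one probe cannot be set against that of another, since probes differ in brightness. For the same reason the summed levels of gene lists below follow mainly the brightest probes of each list. A single slide, scanned once, carried the 6 arrays in rows. LPS replicate 1 sat in the row of the 3 saline arrays, while the other row held LPS replicates 2 and 3. Saline replicates 2 and 3 stood apart in transcripts of the adrenal gland. The summed level (75th percentile units) of 7 adrenal cortex markers was 165 and 221 on these arrays against 0.805 to 1.67 on the other 4, and that of 7 adrenal medulla markers was 86.2 and 56.1 against 3.12 to 5.94. The differences of the factors and of most genes described with their values are therefore also given without these saline arrays and within the slide row that holds both treatments. The tissue label was checked with 10 germ cell markers, of which 9 had a probe and 4 (Ddx4, Dazl, Mael and Dnd1) were well above background on every array, and with 10 granulosa cell markers, of which 9 had a probe and 8 were.

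No oocyte factor passed the test for a difference between treatments. None of the 4 probes passed an adjusted p under 0.05 in limma, where 0% of all 30367 probes did, and none passed the 2-fold criterion of the methods at an unadjusted p under 0.05, where 1.69% of probes did (186 higher and 327 lower). Before adjustment limma gave 5018 probes under 0.05, 16.5% of all probes. An ordinary test of group means, which the methods do not name, gave 3954, and it also called 0 after adjustment. None of the 4 factors was under 0.05 before adjustment in either, although Sohlh2 was in limma with the replicate number as a block. LPS and saline arrays overlapped at all 4 factors, while they did not overlap at 11.4% of the 17585 probes well above background on every array. Each factor was well above background on every array, and duplicate spots of its probe differed by at most 0.40 on the log2 scale. The design limits this comparison, since the smallest p that exact permutation of 3 arrays against 3 allows is 0.1.

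Nobox, which is needed for oocytes to pass from primordial to growing follicles, had log2 levels of -1.64, -0.27 and -0.45 on LPS replicates 1, 2 and 3, and of -1.25, -1.34 and -0.68 on saline replicates 1, 2 and 3. LPS replicates 2 and 3 were the highest of the 6 arrays and LPS replicate 1 the lowest, so that the saline arrays lay between them. The mean was -0.78 ± 0.74 (SD, n = 3) after LPS and -1.09 ± 0.36 (SD, n = 3) after saline. The difference, LPS minus saline, was 0.30 on the log2 scale with a standard error of 0.40 and a 95% interval from -0.65 to 1.25 (limma adjusted p = 0.864, two-sided exact permutation p = 0.6). The processed signal, before any scaling, ran from 1002 on saline replicate 1 to 4036 on LPS replicate 3.

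Sohlh2, a helix-loop-helix factor that pairs with Sohlh1 in early oocytes, was the factor with the widest range over the arrays, 1.97 on the log2 scale. Its levels were -3.56, -2.30 and -2.10 on LPS replicates 1, 2 and 3, and -4.07, -3.72 and -2.43 on saline replicates 1, 2 and 3. Again LPS replicates 2 and 3 were the highest, followed by saline replicate 3, and LPS replicate 1 lay above saline replicates 1 and 2. The difference was 0.76 with a standard error of 0.54 and a 95% interval from -0.54 to 2.06 (limma adjusted p = 0.627, two-sided exact permutation p = 0.2), so that a rise of more than 2-fold and a fall both lay within it. Taken by replicate number, the LPS array was higher than its saline partner in all 3 pairs, by 0.51, 1.42 and 0.33. The labels name no pairs, and the pairing was taken from these same data. The fit with the replicate number as a block gave an unadjusted p of 0.0392 and an adjusted p of 0.222 in limma.

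Lhx8, a LIM homeodomain factor of oocytes, had log2 levels of 0.82, 1.81 and 1.70 on LPS replicates 1, 2 and 3 and of 1.08, 0.61 and 1.20 on saline replicates 1, 2 and 3. LPS replicates 2 and 3 lay above every saline array, and LPS replicate 1 lay above saline replicate 2 only. The difference was 0.48 with a standard error of 0.32 and a 95% interval from -0.27 to 1.24 (limma adjusted p = 0.570, two-sided exact permutation p = 0.3). Of the sum of squares of Lhx8 over the arrays, 30.9% lay between the treatment means, compared with 23.8% for Sohlh2, 9.26% for Nobox and 1.0% for Pou5f1. These shares describe the split only. The share that such a split takes without any effect was not worked out, and the part of the slide row in them was not tested.

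Pou5f1 varied least, over a range of 0.60 on the log2 scale. Its levels were 1.53, 1.42 and 1.11 on LPS replicates 1, 2 and 3 and 1.56, 0.96 and 1.41 on saline replicates 1, 2 and 3, and the highest and the lowest array were both from saline-treated pups. The probe's sequence was not used here, so that whether it also reads related copies of Pou5f1 was not checked, and this holds for every Pou5f1 value below. The difference was 0.04 with a standard error of 0.23 and a 95% interval from -0.49 to 0.58 (limma adjusted p = 0.987, two-sided exact permutation p = 0.8).

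**Figure D1:**
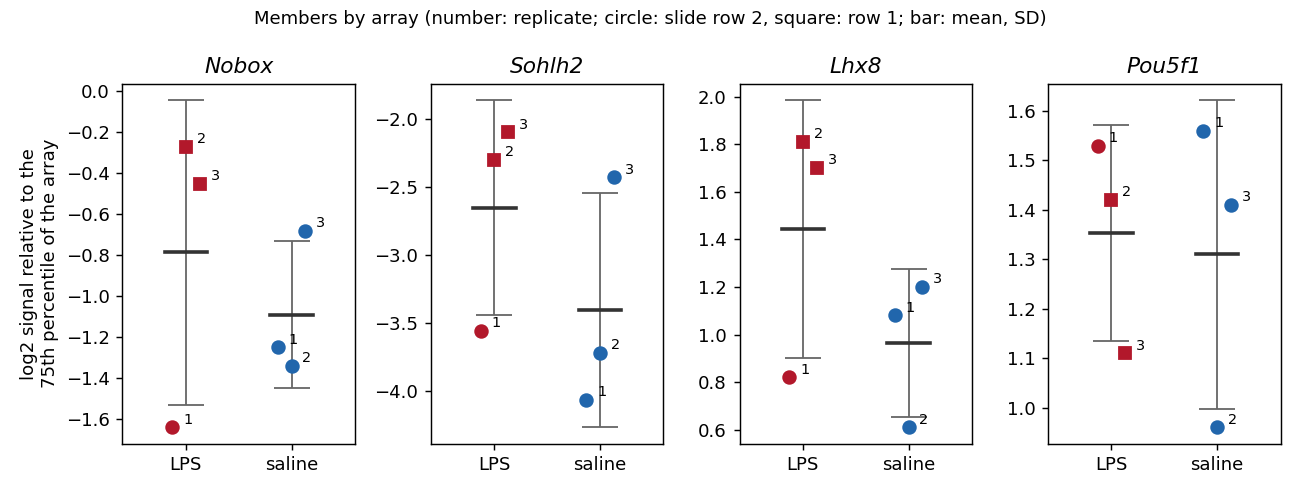
Log2 level, with the 75th percentile of each array at 0 (y axis, a separate range for each gene) for the 4 oocyte factors on the 3 LPS and 3 saline arrays. Numbers are replicates, circles mark the slide row shared by both treatments and squares the other row, and bars show the mean and SD. The treatments overlap for every gene, and LPS replicates 2 and 3 are the highest arrays for Nobox, Sohlh2 and Lhx8 but not for Pou5f1.

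For Nobox, Sohlh2 and Lhx8 the direction of the difference depended on which LPS arrays were compared. LPS replicate 1 against the mean of the 3 saline arrays of its own slide row gave -0.55 for Nobox, -0.15 for Sohlh2 and -0.14 for Lhx8, whereas LPS replicates 2 and 3 together against the same saline arrays gave 0.73, 1.21 and 0.79. The fit with the slide row as a block rests on LPS replicate 1 in the same way and gave the same differences, none of them called (limma adjusted p from 0.583 to 0.918). Pou5f1 was 0.22 in that comparison and -0.04 in the other. Slide row and replicate cannot be told apart for LPS replicates 2 and 3, and the part of the row in these differences was not tested.

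Without saline replicates 2 and 3, the arrays with adrenal transcripts, the differences were 0.46 for Nobox, 1.42 for Sohlh2, 0.36 for Lhx8 and -0.20 for Pou5f1, each resting on a single saline array that is assumed to vary like the others. Without LPS replicate 1, Sohlh2 passed the 2-fold criterion at an unadjusted p under 0.05, as it did without saline replicate 3, with differences of 1.21 and 1.24. In these settings 908 and 555 of all probes passed this criterion, against 513 of 30367 over all arrays. Leaving out other arrays lowered the difference of Sohlh2, to 0.43 without saline replicate 1 and 0.48 without LPS replicate 3. With each array left out in turn Nobox lay between 0.05 (without LPS replicate 2) and 0.73 (without LPS replicate 1). Lhx8 lay between 0.30 (without LPS replicate 2) and 0.79 (without LPS replicate 1). Without LPS replicate 1 both were also at an unadjusted p under 0.05 in limma (0.0303 for Nobox and 0.0162 for Lhx8), short of 2-fold. Even over all arrays, 16.5% of all probes were under this limit. Pou5f1 was -0.04 without LPS replicate 1 and -0.13 without saline replicate 2, against 0.04 over all arrays. Over the 19 alternative settings no factor reached an adjusted p under 0.05.

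**Figure D2:**
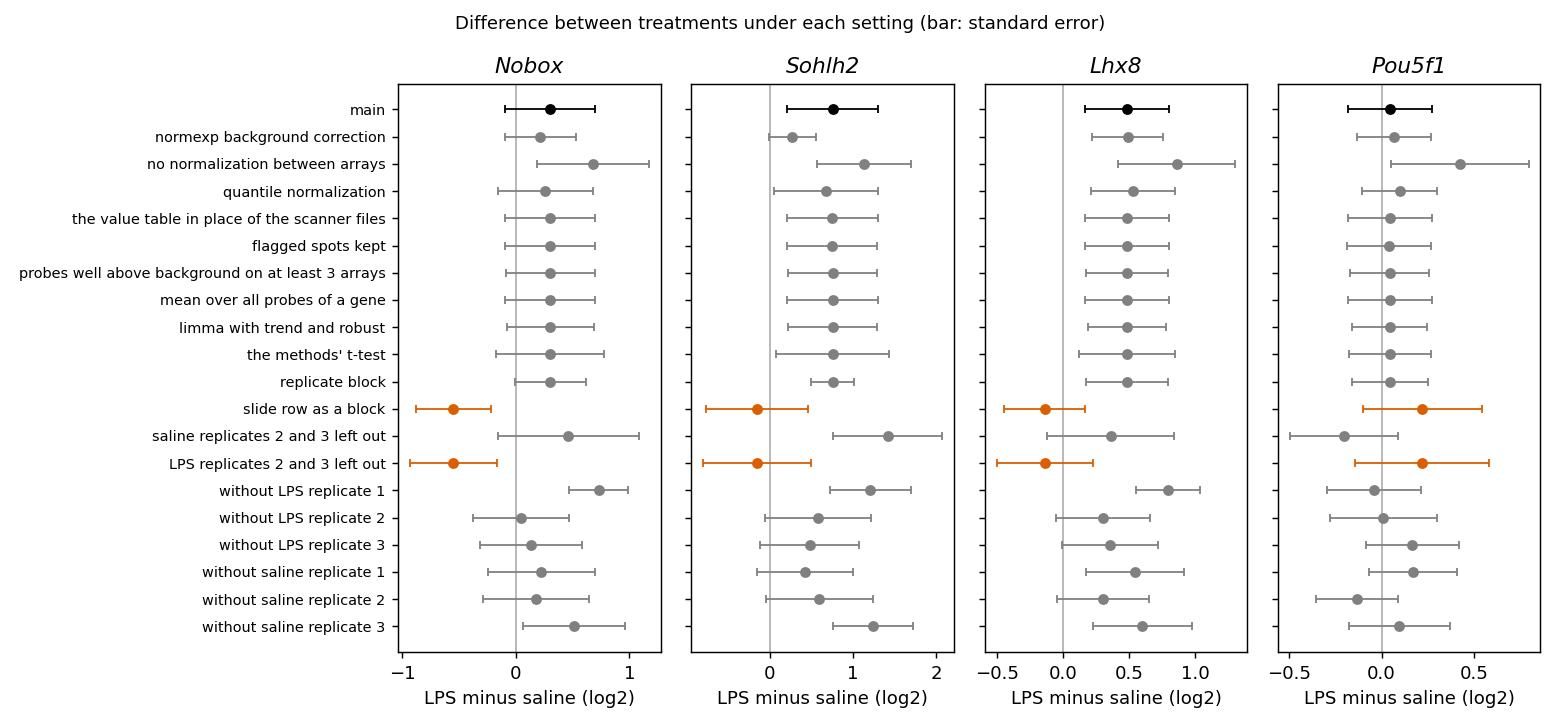
Difference between treatments, LPS minus saline on the log2 scale (x axis, a separate range for each gene), for each oocyte factor under every setting (y axis), with standard errors as bars. Black marks the main setting, in which all 6 arrays were used, and orange the settings that rest on LPS replicate 1 alone, where Nobox is at -0.55, Sohlh2 at -0.15 and Lhx8 at -0.14.

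The levels of Nobox, Sohlh2 and Lhx8 went up and down together over the 6 arrays, across both treatments. As a description over 6 arrays that share a slide, Pearson's r was 0.913 between Nobox and Lhx8, 0.891 between Nobox and Sohlh2 and 0.814 between Sohlh2 and Lhx8. Pou5f1 did not vary with them, at -0.128 with Nobox, -0.166 with Sohlh2 and 0.114 with Lhx8. With 6 arrays high values are common, and 205 of the 9672 named genes well above background on all arrays passed an r of 0.95 in size with Nobox, against 33 with Pou5f1.

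The named genes most like Nobox were Ptges (r = 0.999), a prostaglandin E synthase, Mos (0.996), the kinase that holds the egg in meiosis, and Cpeb1 (0.996), which controls translation of stored messages in oocytes. Those most like Sohlh2 were Dnajc11 (0.994), Tdrd5 (0.992), a Tudor domain protein of germ cells, and Itfg2 (0.992). Genes most like Lhx8 included Krt85 (0.995) and Ssr2 (0.993), and those most like Pou5f1 were Dll4 (0.994), a Notch ligand of blood vessels, Clpsl2 (0.988) and the odorant receptor gene Or1j14 (0.985). The mean of the 4 factors was matched best by Tex19.1 (0.998), a gene of germ cells, Oas1a (0.996), Nek1 (0.994), Dbndd1 (0.994) and Raet1ll1 (0.992), among 9669 genes.

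Genes reported to depend on these factors in knockout mice varied over the arrays much as Nobox did. Of 18 such genes listed (egg coat, growth factor and maternal effect genes) 15 had a probe and 12 were well above background on every array. Over these 12 the median r was 0.976 with Nobox (lowest 0.811), 0.897 with Sohlh2 and 0.885 with Lhx8, against -0.22 with Pou5f1. Their summed level over the 15 genes was 27.9, 89.6 and 72.0 on LPS replicates 1, 2 and 3 and 39.1, 40.8 and 63.7 on saline replicates 1, 2 and 3, highest on LPS replicates 2 and 3 and lowest on LPS replicate 1.

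None of the 15 genes passed the test in either direction. Their median difference was 0.43, beside -0.04 over all probes of the array and 0.02 over probes well above background on every array. Of the 15, 14 were positive, but 2 genes, Dnmt1 (-0.16) and Rspo2 (0.43), were well above background on no array. Within the slide row shared by both treatments the median over the 12 brighter genes was -0.66 and 2 were positive, in place of 0.44 and 12 over all arrays. Among the 12 brighter genes the largest differences were those of Bmp15, Zp2 and Npm2. Bmp15 is an oocyte growth factor, Zp2 a protein of the egg coat and Npm2 an oocyte chromatin protein.

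Bmp15 had log2 levels of -3.08, -1.95 and -1.74 after LPS and -3.21, -3.48 and -2.33 after saline, with a difference of 0.75 (standard error 0.45, limma adjusted p = 0.5). Zp2 had 1.62, 2.60 and 2.37 after LPS and 1.58, 1.33 and 1.87 after saline, with a difference of 0.60 (standard error 0.30, limma adjusted p = 0.374). Npm2 had 0.38, 2.44 and 2.11 after LPS and 0.65, 0.91 and 1.63 after saline, with a difference of 0.58 (standard error 0.57, limma adjusted p = 0.775). For all 3 genes LPS replicates 2 and 3 were the highest arrays, and the treatments overlapped. Within the slide row of LPS replicate 1 the differences were -0.07 for Bmp15, 0.03 for Zp2 and -0.69 for Npm2, and without saline replicates 2 and 3 they were 0.96, 0.62 and 0.997.

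**Figure D3:**
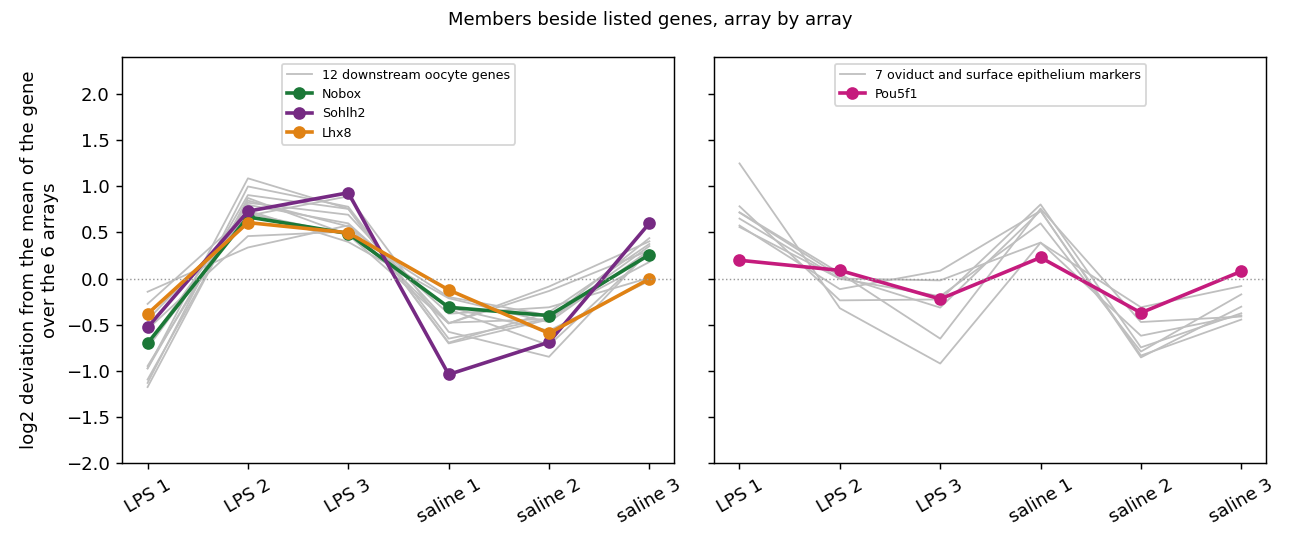
Log2 deviation of each gene from its own mean over the 6 arrays (y axis) by array (x axis). On the left, Nobox, Sohlh2 and Lhx8 (coloured) lie among 12 oocyte genes reported to depend on these factors (grey), all high on LPS replicates 2 and 3, and on the right Pou5f1 lies beside 7 oviduct and surface epithelium markers (grey), high on LPS replicate 1 and saline replicate 1.

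In whole ovaries, fewer cells of a type and less RNA per cell cannot be told apart. Markers of other cells also differed between arrays. The summed level of 9 granulosa cell markers was 20.4, 72.3 and 50.2 on LPS replicates 1, 2 and 3 and 35.4, 38.0 and 60.9 on saline replicates 1, 2 and 3, lowest on LPS replicate 1 as for Nobox, and over the 8 brighter ones the median r was 0.899 with Nobox and -0.176 with Pou5f1. That of 7 oviduct and surface epithelium markers, of 9 listed, was 70.8, 43.5 and 38.0 after LPS and 72.0, 27.4 and 36.3 after saline. It was highest on LPS replicate 1 and saline replicate 1, the arrays where Pou5f1 was highest, and over the 7 genes the median r was 0.789 with Pou5f1 (from 0.688 to 0.900) and -0.35 with Nobox. The 8 macrophage markers summed to between 4.03 and 6.01 on all arrays, and 3 of them were higher on every LPS array than on any saline array. Of the 5 well above background on every array 2 did not overlap, beside 11.4% of all such probes. The 3 were Csf1r, a growth factor receptor (difference 0.52), Adgre1, a surface protein (0.81), and Mrc1, the mannose receptor, each with a limma adjusted p of 0.271. A second Csf1r probe, well above background on every array, gave 0.05. Within the slide row Csf1r was 0.51 and Adgre1 0.60, and without saline replicates 2 and 3 they were 0.46 and 1.21. The other markers overlapped, with Aif1 at 0.26, Lyz2 at 0.04, Cd68 at -0.16 and Cd163 at -0.16 (well above background on 2 saline arrays). Itgam, among these others, was well above background on the LPS arrays only, and no fold is given for it. Mrc1 passed the 2-fold criterion, but it was well above background on the LPS arrays only and was at least 2.08-fold higher there (fitted difference 0.64 within the slide row and 1.77 without saline replicates 2 and 3). Of the 8 brighter granulosa cell markers 1, Kitlg, did not overlap (difference 0.57, limma adjusted p = 0.271), again beside 11.4% of all such probes. Its difference was 0.43 within the slide row and 0.785 without saline replicates 2 and 3. A second Kitlg probe, well above background on 5 arrays, gave -0.04. The part of other cell types in the levels of the factors was not tested.

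Each factor was also set against germ cell transcripts of the same array, as its log2 level minus the mean of Ddx4, an RNA helicase, Dazl, an RNA-binding protein, and Mael, a factor of transposon silencing. Dnd1, the other germ cell marker well above background on every array, was not in the reference set for this comparison. That mean was -2.14, -1.23 and -1.14 on LPS replicates 1, 2 and 3 and -1.85, -2.58 and -1.59 on saline replicates 1, 2 and 3, a difference of 0.51. Relative to it, Lhx8 stayed within a narrow range, with 2.96, 3.04 and 2.84 after LPS and 2.94, 3.19 and 2.79 after saline.

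The difference on this scale was -0.02 for Lhx8, with a two-sided exact permutation p of 1.0. It was -0.20 for Nobox (exact p = 0.5) and 0.25 for Sohlh2 (exact p = 0.8), whose lowest array was saline replicate 1 at -2.21. For Pou5f1 it was -0.46 (exact p = 0.4), with 3.66, 2.66 and 2.25 after LPS and 3.41, 3.54 and 3.01 after saline, so that LPS replicates 2 and 3 were the lowest arrays and LPS replicate 1 the highest. The treatments overlapped for all 4 factors. Within the slide row of LPS replicate 1 the values were -0.42 for Nobox, -0.02 for Sohlh2, -0.01 for Lhx8 and 0.34 for Pou5f1, and without saline replicates 2 and 3 they were 0.12, 1.07, 0.01 and -0.55.

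Dnd1 had a difference of -0.17 over all arrays, and a second Dnd1 probe, well above background on 5 arrays, gave 0.08. Within the slide row Dnd1 was -0.27, where Ddx4 was -0.36, Dazl -0.10 and Mael 0.08. Without saline replicates 2 and 3 it was -0.55, where Ddx4 was 0.97, Dazl -0.21 and Mael 0.29. When the brighter Dnd1 probe was added to the reference, a choice made after seeing the data, the difference of the reference became 0.34 in place of 0.51. The differences of the factors were then -0.03 for Nobox (exact p = 0.8), 0.42 for Sohlh2 (exact p = 0.6), 0.15 for Lhx8 (exact p = 0.2) and -0.29 for Pou5f1 (exact p = 0.5), and the treatments overlapped for each. The direction for Lhx8 thus depended on the markers chosen.

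**Figure D4:**
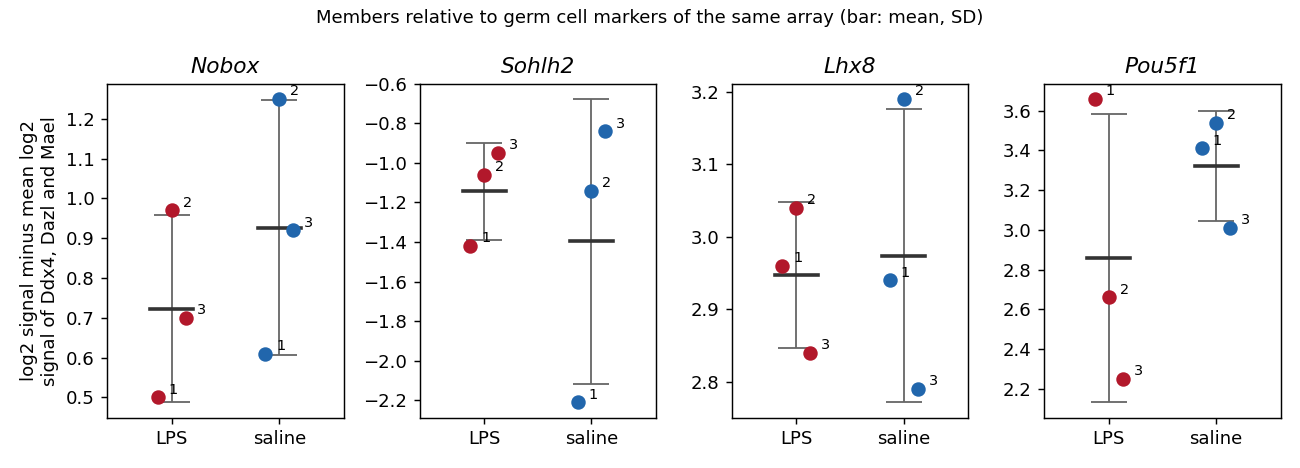
Log2 signal of each oocyte factor minus the mean log2 signal of Ddx4, Dazl and Mael on the same array (y axis, a separate range for each gene) after LPS and saline. Numbers are replicates and bars show the mean and SD. The treatments overlap for every gene, with differences of -0.20, 0.25, -0.02 and -0.46 for Nobox, Sohlh2, Lhx8 and Pou5f1.

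Of 18 partners and relatives of the factors (E proteins that pair with Figla, subunits beside Taf4b, and LIM, POU and forkhead relatives), 16 had a probe and none passed the test, with a median difference of 0.15. The largest differences among the 12 well above background on every array were those of Taf9b (0.52, limma adjusted p = 0.319), a subunit of the general transcription machinery, Ldb1 (0.21), a cofactor of LIM proteins, and Taf9 (0.18). Taf9b was -0.20, 0.28 and 0.39 after saline and 0.42, 0.79 and 0.82 after LPS, without overlap. Its difference was 0.26 within the slide row and 0.88 without saline replicates 2 and 3. Of the 12 genes 2 did not overlap, Taf9b and Taf12 (difference 0.10), beside 11.4% of all probes well above background on every array. Within the slide row Ldb1 was 0.01 and Taf9 0.29, and without saline replicates 2 and 3 they were 0.27 and 0.03. With the replicate number as a block 1 gene passed the 2-fold criterion, Tbpl2, an oocyte relative of the TATA-binding protein that is named here after its values were seen. Its log2 levels were -5.60, -3.08 and -3.36 after LPS and -6.28, -5.21 and -3.89 after saline (difference 1.11, limma adjusted p = 0.647, and 0.21 with the block), and it was well above background on 2 LPS arrays and 1 saline array. Its difference was -0.47 within the slide row and 2.27 without saline replicates 2 and 3.

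Among 12 pluripotency and early germ cell factors 7 had a probe and 1 passed the 2-fold criterion. Tfap2c, a transcription factor of early germ cells, had log2 levels of -3.88, -3.71 and -3.80 after LPS and -5.06, -6.18 and -4.56 after saline. It was well above background on the 3 LPS arrays and on no saline array, so that only a bound can be given, at least 1.57-fold higher after LPS (limma adjusted p = 0.271). The fitted difference was 1.47, and 1.39 within the slide row and 1.26 without saline replicates 2 and 3. The bound sets the mean of the LPS arrays against the higher of the probe's own saline signal and the dimmest signal that was well above background on each saline array. Sycp3, a protein of the synaptonemal complex, was the 1 germ cell marker of 9 that passed this criterion, but it was well above background on no array and no fold is given.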

How the data were processed

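Ovarian RNA of pups given LPS or saline was measured on 3 single-colour arrays per treatment, grouped by the treatment and number in the labels. The authors deposited the spot intensity values of each array, written by Feature Extraction 10.5.1.1, in which the background was already subtracted, and a table of the same intensity values that matched them within 0.497% and was not scaled between arrays. The submitters' processing notes also name lumi, without a version. Unflagged spots of a probe were averaged as log2 values and the 75th percentile of the array was subtracted. limma 3.58.1 in R 4.3.3 compared LPS with saline over 30367 probes, with Benjamini-Hochberg adjustment and no filter on dim probes, and was tested on simulated data. The 2-fold criterion used unadjusted p-values under 0.05. RefSeq accessions named 17998 probes, and 3408 probes with such an accession were not matched. The number of arrays limits the precision.

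The factors and gene lists were chosen with earlier results of these data known. From each list the text names every gene past the 2-fold criterion, or else the 3 genes with the largest difference among those well above background on all arrays, and for each factor the 3 genes with the highest correlation (5 for their mean). 1 gene under this rule is not reported here. Lists of other cell types are given by their sums, and the macrophage markers also one by one. Kitlg is named after its values were seen. As a check of pairing, deviations from the group mean were correlated over probes between LPS and saline arrays of one replicate number, which gave 0.298, 0.215 and 0.254. Arrays of different numbers gave values from -0.271 to 0.16. The numbers were treated as pairs on this basis only, since neither the labels nor the methods name pairs. The 18 alternative settings covered background correction, normalization, flagged and dim spots, the test, replicate number, slide row and arrays left out. The setting without LPS replicates 2 and 3 and the germ cell reference with Dnd1 were chosen after seeing the data.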

Additional observations from a re-analysis of the deposited data

How the results depend on the processing

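At the 2-fold criterion 513 probes passed over all arrays. The number was 282 with normexp background correction, 1230 without normalization between arrays, 291 with quantile normalization, 289 for probes well above background on at least 3 arrays, 148 with the methods' t-test, 1555 with the slide row as a block, 1000 without saline replicates 2 and 3, 1572 without LPS replicates 2 and 3 (chosen after seeing the data), and 250 to 1131 with each array left out. After adjustment 0 passed, but 5 with the slide row, 1 without LPS replicates 2 and 3, and 0 to 290 with each array left out (290 without saline replicate 1). Of the oocyte factors 0 passed the 2-fold criterion, and 0 to 1 with each array left out. Their median difference of 0.39 became -0.15 (-0.145) with the slide row and without LPS replicates 2 and 3. Under both settings Nobox was -0.548, Sohlh2 -0.15 and Lhx8 -0.139. The median of the factors relative to germ cell markers was -0.113, and 0.0573 with Dnd1 in the reference (chosen after seeing the data). Pou5f1 was -0.204 without saline replicates 2 and 3 and -0.131 to 0.168 with each array left out. Genes depending on the factors passed in 0 cases, in 2 without normalization, with the slide row and without LPS replicates 2 and 3, and in 0 to 5 with each array left out (5 without LPS replicate 1). Partners passed in 0 cases, in 1 with the replicate block and in 0 to 1 with each array left out. Pluripotency factors passed in 1 case, in 0 with normexp, with the slide row and without LPS replicates 2 and 3, and in 2 without normalization. Germ cell markers passed in 1 case, in 0 with normexp and with the filter on dim probes, in 3 without normalization, and in 1 to 4 with each array left out. The causes were not tested. With the replicate block, Sohlh2 had an unadjusted p of 0.0392 and an adjusted p of 0.222 in limma, which changed no call of a factor by the 2-fold or the adjusted criterion. The block gave 628 probes at the 2-fold criterion and 0 after adjustment. Without scaling the median over all probes rose from -0.04 to 0.34, and the differences were 0.68, 1.13, 0.86 and 0.42 for Nobox, Sohlh2, Lhx8 and Pou5f1.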
